A study of Mus musculus with 15 samples.

Results

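The transcripts described here encode the ATP-binding cassette (ABC) proteins, the organic anion transporting polypeptides (OATP, Slco genes), the organic cation and anion carriers of the Slc22 family and the bile acid carrier family Slc10 of mouse liver. Members were chosen by gene symbol (Abca to Abcg, Slco, Slc22a and Slc10a) and a protein-coding annotation, with 1 Slco1a gene left out. Of 26839 genes in the 3 deposited tables, 83 matched by symbol and 82 of these were protein coding. The 67 members with at least 10 raw counts in at least 3 of 15 libraries were kept.

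Livers came from male C57BL/6J mice, and every mouse had received an adeno-associated virus of serotype 8 (AAV8). Libraries were poly(A)-selected and counted per gene, 3 in each of 5 groups. In the chow group the virus carried green fluorescent protein (GFP) behind the liver-specific thyroxine binding globulin (TBG) promoter, and the mice ate standard chow for 16 weeks. The other 4 groups ate an FPC diet with sugar water, a model of non-alcoholic steatohepatitis (NASH), for 16 weeks. They received TBG-driven GFP, TBG-driven Activin A (a ligand that cells secrete, related to transforming growth factor beta), a scrambled short hairpin RNA behind the H1 promoter, or an H1-driven hairpin against Gpnmb, which encodes a membrane glycoprotein of macrophages and other cells. The sources used here give neither the ages of the mice nor whether each library came from its own animal. The p-values therefore measure the spread between these samples, which may be partly technical.

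Transporters set what a hepatocyte takes from blood and what it passes into bile. Slc10a1 (the sodium taurocholate carrier), OATPs and Slc22 proteins bring bile acids, organic anions and organic cations in across the basolateral membrane. ABC pumps of the canalicular membrane export bile salts (Abcb11), phospholipid (Abcb4), conjugates (Abcc2) and sterols (the Abcg5 and Abcg8 pair), and ABCC pumps of the basolateral membrane return solutes to blood. Other ABC proteins load cholesterol onto lipoproteins, serve peroxisomes, mitochondria and lysosomes, or act in translation without crossing a membrane.

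Libraries held 15276879 to 23467867 counts. Inhba, the gene of the Activin A subunit, stood at 24 to 25.7 counts per 1000000 (CPM) in the Activin A libraries and at 4.76 to 12.7 CPM in the others. Gpnmb stood at 1.26 to 3.30 CPM with the hairpin and at 26.2 to 36.4 CPM with the scrambled hairpin, and at 0.149 to 0.483 CPM on chow. It stood at 24.9 to 40.4 CPM with GFP on the NASH diet and at 2.98 to 5.67 CPM with Activin A, so both treated arms held less Gpnmb than their controls. The summed level of 8 hepatocyte markers was 81509 to 113468 CPM on chow and 56742 to 73616 CPM in the 12 NASH diet libraries, so the labelled tissue was seen in every library. Of these 8 markers, 2 were called lower and 0 higher on the diet, and 1 higher and 1 lower with Activin A. With the hairpin 3 were called higher and 0 lower. The summed level of 8 macrophage markers was 187 to 206 CPM on chow, 529 to 613 with GFP, 231 to 283 with Activin A, 506 to 595 with the scrambled hairpin and 256 to 351 with the Gpnmb hairpin. All 8 macrophage markers were called higher on the diet, and 7 of 8 lower with Activin A and with the Gpnmb hairpin. Of 6 stellate cell markers, 5 were called higher on the diet, 2 lower with Activin A and 4 lower with the hairpin, and their summed level was 190 to 228 CPM on chow, 343 to 476 with GFP, 359 to 380 with Activin A, 409 to 464 with the scramble and 317 to 358 with the hairpin. Of 6 endothelial markers, 3 were higher on the diet, 1 higher and 1 lower with Activin A, and 3 lower with the hairpin. Among cholangiocyte markers 3 of 6 tested were higher on the diet and 1 of 6 lower with Activin A, and edgeR called 0 of 7 with the hairpin (2 lower at an unadjusted p under 0.05). The shares of all genes called in each comparison are given below. Bulk libraries cannot tell fewer cells of a type from less RNA per cell, and the part of cell composition in the results below was not tested.

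Levels between genes were compared per kilobase of the deposited gene length. On that scale Slco1b2, an OATP of mouse hepatocytes, stood highest of the kept members, with 258 CPM per kilobase over the 15 libraries. Its group means lay between 210 and 306. Slc10a1 had 206 CPM per kilobase, with group means between 141 and 260.1. The peroxisomal half-transporter Abcd3 had 111, the bile salt export pump Abcb11 had 102 and the conjugate pump Abcc2 had 97.4. The highest member of the basolateral ABCC class was Abcc3 with 80.5, that of the ABCA and cholesterol exporter class was Abca6 with 46.2, and that of the ABC proteins without membrane domains was Abcf1 with 19.0 CPM per kilobase.

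**Figure D1:**
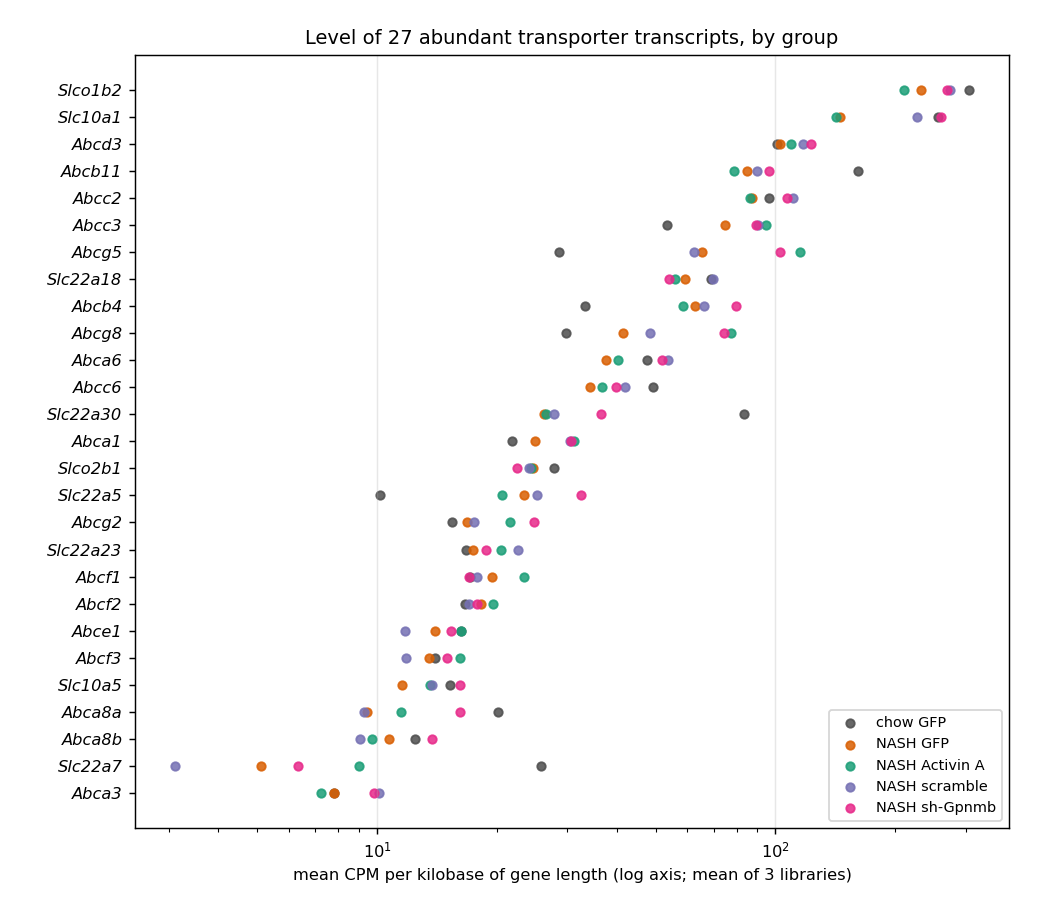
Mean CPM per kilobase of gene length (log axis) of 27 of the members with the highest levels, with 1 point for each of the 5 groups (mean of 3 libraries). Abcb11, Slc22a30 and Slc22a7 lie farther right on chow than in the NASH diet groups, and Abcg5, Abcb4 and Slc22a5 lie farther left on chow.

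In the comparison of GFP livers on the NASH diet with GFP livers on chow, 65 members were tested and a member was called at an edgeR adjusted p under 0.05. Of these, 16 were called higher (24.6%), against 11.2% of all 14388 genes tested, and 10 lower (15.4%), against 5.82% of all genes. The median log2 fold change of the members was 0.17 against -0.01 over all genes, and the median size of the change without its sign was 0.55 against 0.32. Scaling by library size alone, which moved the median of all genes to 0.24, gave 24 members higher and 7 lower. Over all genes that scaling gave 2671 higher and 405 lower. Without GFP 1, or without chow 1, the number higher was 10.

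Activin A against GFP on the same diet left most members uncalled: 3 of 65 were higher (4.62%), against 1.66% of all genes, and 2 were lower (3.08%), against 3.86% of all genes. The median log2 fold change was 0.04 for the members. The number higher was 1 without Activin A 2 or 3 and 7 without GFP 3, and the number lower was 0 without Activin A 1, Activin A 3 or GFP 1 and 1 without Activin A 2. This comparison and the diet comparison share the 3 GFP libraries of the NASH diet, so their values are given side by side only.

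The Gpnmb hairpin against the scrambled hairpin gave 17 of 66 members higher (25.8%), against 12.2% of all genes, and 13 lower (19.7%), against 12% of all genes. The median size of the change without its sign was 0.34 for members and 0.25 for all genes. Under library size alone the split was 14 higher and 16 lower, with the median of all genes at -0.11. Over all genes it was then 1006 higher and 2464 lower. The number lower was 6 without hairpin 2, 8 without scramble 2 and 7 without scramble 3.

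Over all 5 groups, 52 of 67 members (77.6%) differed by the edgeR test, against 44.9% of all genes. All 8 ABCC members and 7 of 8 canalicular exporters were among them. The exception among canalicular exporters was Abcc2, which stood at 975, 955 and 532 CPM on chow and between 646 and 984 CPM in the NASH diet libraries.

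Between the scrambled hairpin and GFP, the 2 control vectors on the NASH diet, edgeR called 0 of 67 members, against 0.741% of all genes. At an unadjusted p under 0.05 there were 19 members, and DESeq2 called 8 and limma 2. In the edgeR fit, 10 were called without GFP 3, 7 without chow 3, 3 without chow 2, 2 without chow 1 and 1 without hairpin 1. Shares of all genes were not taken for these alternative runs. When the scrambled-hairpin livers were set against the chow livers, 26 members were higher (38.8%), against 17% of all genes, and 11 were lower (16.4%), against 17.4% of all genes. Library size alone, with the median of all genes at 0.30, gave 39 higher and 6 lower there, beside 5161 and 973 of all genes. This comparison shares the chow libraries with the diet comparison and differs from it in the vector too.

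**Figure D2:**
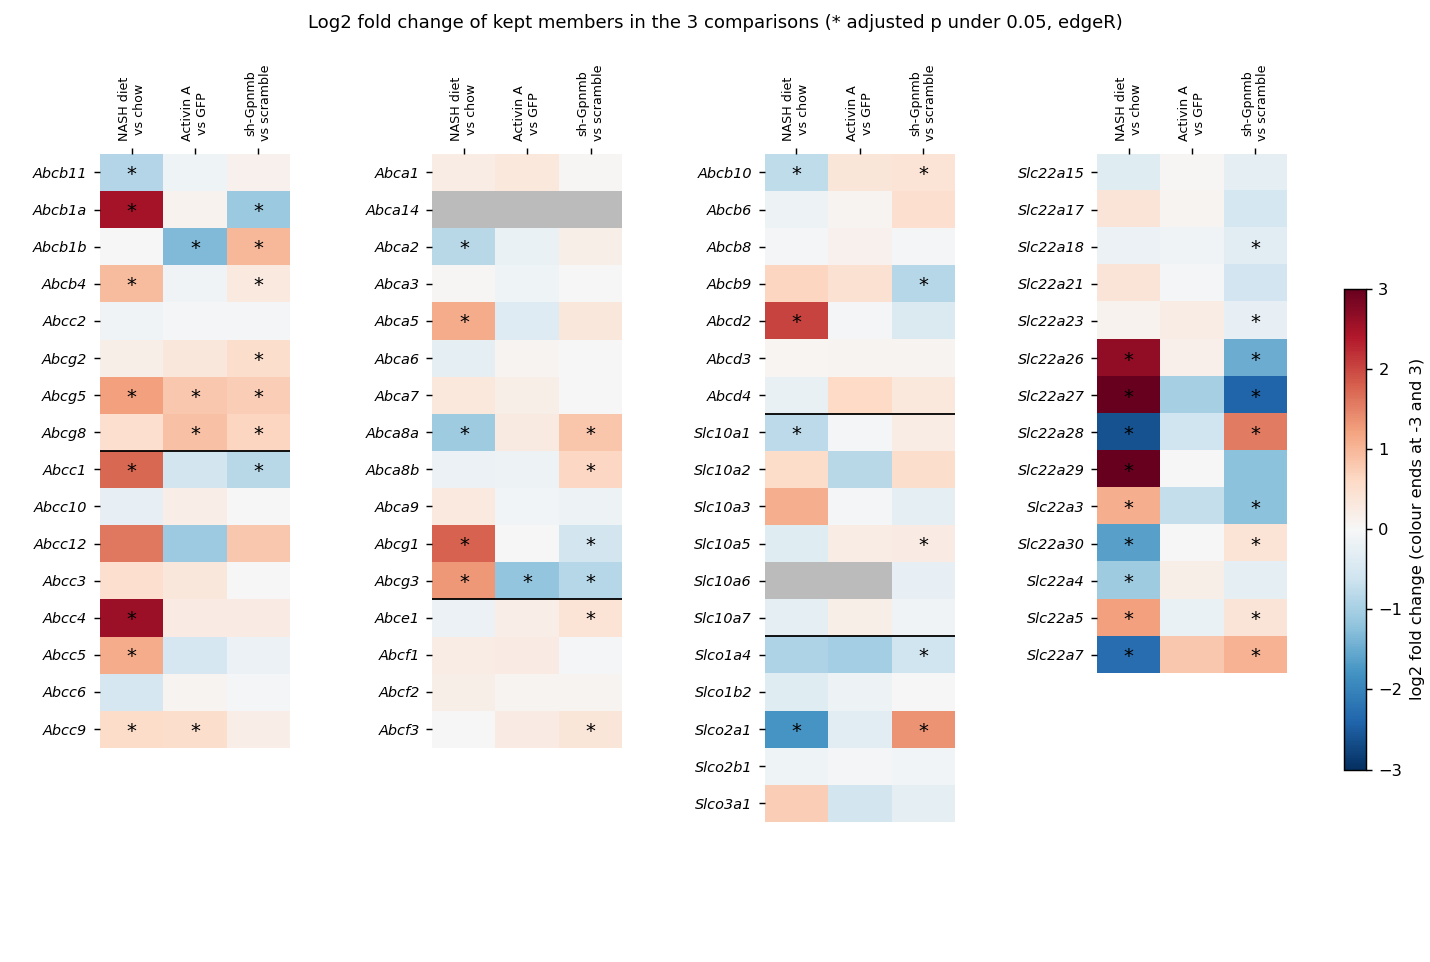
Log2 fold change of 64 members (rows, by role class, with black lines between classes) in 3 comparisons (columns). Red is higher, blue lower and grey not tested, and an asterisk marks an edgeR adjusted p under 0.05, given to 26 of these for the diet, 5 for Activin A and 27 for the Gpnmb hairpin.

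Among the carriers that take bile acids into the hepatocyte, Slc10a1 stood at 531, 564 and 591 CPM on chow and at 253, 247 and 456 CPM in GFP livers on the diet. The groups did not overlap, and GFP replicate 3 lay between the chow libraries and the other 2. The log2 fold change was -0.78 ± 0.23 (SE, n = 3 per group, edgeR adjusted p = 0.0453). The call was lost without any 1 of 5 libraries (GFP 1 and 2 and all 3 of chow, adjusted p up to 0.167, log2 fold change -1.13 to -0.63 over all 6) and under library size alone.

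The fall was not called in the scrambled-hairpin livers, which held 590, 413 and 495 CPM, overlapping chow, with a log2 difference from chow of -0.20 ± 0.18. Activin A livers held 327, 303 and 304 CPM, within the range of GFP (log2 fold change -0.05 ± 0.21). Gpnmb hairpin livers held 588, 563 and 565 CPM against the scramble (0.22 ± 0.11, edgeR adjusted p = 0.186). The other tested Slc10 members were not called on the diet, and Slc10a6, with at most 19 counts in a library, was too low to be tested on the diet or with Activin A. Slc10a5, chosen after its values were seen, was higher with the hairpin (0.26 ± 0.08, edgeR adjusted p = 0.0351), a call lost without hairpin 2 or 3 or scramble 2 or 3 (adjusted p up to 0.169), under library size alone, without the filter on low counts and in the fit of all 15 libraries (adjusted p = 0.404).

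The OATP class held 5 kept members. Slco1b2, the most abundant, was called in none of the 3 comparisons, with a log2 fold change of -0.36 ± 0.17 on the diet and 0.00 ± 0.11 with the hairpin. Slco2b1 was not called either (-0.14 ± 0.15 on the diet). In the fit of all 15 libraries the diet difference of Slco1b2 was called.

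Slco2a1, which encodes the prostaglandin transporter, was the OATP member with the smallest p in both of these comparisons. It stood at 97.6, 123 and 93.8 CPM on chow, 24.6, 26.2 and 38.7 with GFP, 20.9, 26.5 and 25.5 with Activin A, 34.1, 26.1 and 32.0 with the scrambled hairpin, and 75.1, 78.9 and 76.2 with the Gpnmb hairpin. Chow libraries were highest, the hairpin libraries lay between, and the other 9 NASH diet libraries were all below 40 CPM with no overlap with either. The log2 fold change was -1.78 ± 0.20 on the diet (edgeR adjusted p = 0.000441) and 1.34 ± 0.10 with the hairpin (edgeR adjusted p = 1.66e-05). With Activin A it was -0.31 ± 0.18 and not called.

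Slco1a4, an OATP of broad substrate range, ran at 74.2, 78.4 and 62.8 CPM on chow and at 29.2, 21.7 and 60.5 with GFP. Activin A libraries held 19.3, 19.2 and 16.8 CPM, below every other library. Neither the diet (-0.92 ± 0.31, edgeR adjusted p = 0.0734) nor Activin A (-1.02 ± 0.31, edgeR adjusted p = 0.0964) passed the threshold. The diet fall was called by DESeq2 and limma, without the filter on low counts, in the fit of all 15 libraries and without GFP 3. The Activin A fall was called without that filter, in the fit of all 15 libraries and without GFP 2. The hairpin gave 43.3, 30.5 and 38.1 CPM against 70.4, 47.7 and 54.2. It fell by 0.60 ± 0.15 on the log2 scale (edgeR adjusted p = 0.0166), a call lost without hairpin 2 or scramble 1 (adjusted p up to 0.0703) and in the fit of all 15 libraries (adjusted p = 0.151).

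In the Slc22 family, 9 of 15 members were called on the diet, 5 higher and 4 lower, against 11.2% and 5.82% of all genes. Of these 9, 5 lie on the minus strand within chr19:7781041-8405111: Slc22a26, Slc22a27, Slc22a28, Slc22a29 and Slc22a30, organic anion carriers of a rodent gene cluster known for sex-biased expression. They moved in opposite directions, so the 160 bases before each start are shown (RefSeq, GRCm38.p6, minus strand, 5′ to 3′). Capitals mark the letters GTTAAC, which read the same on both strands. They resemble part of the motif of hepatocyte nuclear factor 1 without being that motif, and binding was not tested. The positions are chr19:7802668-7802827 for Slc22a26, chr19:7966028-7966187 for Slc22a27, chr19:8131983-8132142 for Slc22a28, chr19:8218901-8219060 for Slc22a29 and chr19:8405106-8405265 for Slc22a30.
Slc22a26: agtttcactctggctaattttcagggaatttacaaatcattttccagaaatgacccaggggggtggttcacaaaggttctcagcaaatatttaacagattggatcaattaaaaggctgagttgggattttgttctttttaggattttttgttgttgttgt
Slc22a27: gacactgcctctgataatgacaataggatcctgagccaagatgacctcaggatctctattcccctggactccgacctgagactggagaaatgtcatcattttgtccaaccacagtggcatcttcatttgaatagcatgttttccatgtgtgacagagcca
Slc22a28: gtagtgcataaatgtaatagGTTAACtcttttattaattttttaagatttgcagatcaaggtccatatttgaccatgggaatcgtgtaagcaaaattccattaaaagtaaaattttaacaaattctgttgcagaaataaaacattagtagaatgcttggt
Slc22a29: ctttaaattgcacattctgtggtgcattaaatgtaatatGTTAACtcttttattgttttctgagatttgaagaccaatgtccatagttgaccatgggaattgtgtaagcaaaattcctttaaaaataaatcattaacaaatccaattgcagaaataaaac
Slc22a30: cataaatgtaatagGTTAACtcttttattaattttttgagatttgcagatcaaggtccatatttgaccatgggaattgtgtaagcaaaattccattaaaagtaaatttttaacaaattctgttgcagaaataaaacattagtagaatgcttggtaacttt

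The letters GTTAAC stood in the windows of Slc22a28, Slc22a29 and Slc22a30, beginning 140, 121 and 146 bases before the start. Over windows of 300 bases (250 before to 50 after the start, both strands), 3.05% of 32851 RefSeq windows held them, and among the 51 members with a window they stood in these 3 and in Abcc2. Over the 250 bases before the start, Slc22a28 and Slc22a30 were identical at 238 of 256 alignment columns (93.0%). Slc22a29 matched them at 65.1% and 63.6%, and each of the other pairs lay between 42.2% and 52.0%.

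Slc22a28 stood at 21.1, 27.7 and 29.1 CPM on chow and at 2.91, 4.93 and 4.47 with GFP on the diet. Activin A livers held 2.40, 2.87 and 2.98 CPM, scrambled-hairpin livers 3.53, 2.25 and 2.89, and Gpnmb hairpin livers 10.2, 6.73 and 8.11. Chow was highest, every hairpin library lay above the other 9 NASH diet libraries, and none of these sets overlapped. The log2 fold change was -2.62 ± 0.23 on the diet (edgeR adjusted p = 0.000126) and 1.55 ± 0.22 with the hairpin (edgeR adjusted p = 0.000981).

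Slc22a30, its neighbour with a near-identical upstream stretch, stood at 282, 278 and 280 CPM on chow and at 96.2, 84.4 and 85.0 with GFP. It fell by 1.62 ± 0.14 on the diet (edgeR adjusted p = 0.000126). With the hairpin it held 128, 116 and 124 CPM against 114, 77.9 and 89.1, groups that came close and did not overlap. That rise of 0.41 ± 0.12 (edgeR adjusted p = 0.0304) was lost without any 1 of 5 libraries (all 3 hairpin libraries and scramble 2 and 3, adjusted p up to 0.120) and under library size alone.

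Slc22a27 had the opposite pattern at a low level. It stood at 0, 0.373 and 0.621 CPM on chow, which rest on 14 counts in all, and at 10.2, 5.37 and 2.64 with GFP on the diet. Activin A livers held 3.87, 2.75 and 2.67 CPM, scrambled-hairpin livers 4.59, 6.92 and 5.27, and Gpnmb hairpin livers 1.03, 1.42 and 0.649. Every NASH diet library lay above every chow library, and the hairpin libraries lay below the other 9 of that diet. The log2 fold change was 4.26 ± 0.75 on the diet (edgeR adjusted p = 0.00393) and -2.40 ± 0.30 with the hairpin (edgeR adjusted p = 0.000438). The diet value was 3.65 without GFP 1, 3.60 without chow 1 and 5.12 without chow 3.

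Slc22a29 and Slc22a26, chosen after their values were seen, went the same way on still fewer counts. Slc22a29 held 9 counts in all on chow and 163 with GFP (log2 fold change 3.65 ± 0.86, edgeR adjusted p = 0.0163), a call lost without GFP 1, GFP 2 or chow 1 (adjusted p up to 0.0708). Of the 9 counts 8 lay in chow 3, and the log2 fold change was 6.02 without that library and 3.10 without chow 2. With the hairpin it was not called (-1.24 ± 0.43, edgeR adjusted p = 0.0606). Slc22a26 held 7 counts on chow and 64 with GFP (2.66 ± 0.78, edgeR adjusted p = 0.0414), and 112 with the scramble against 30 with the hairpin (-1.49 ± 0.48, edgeR adjusted p = 0.0444). The first call was lost without any 1 of its 6 libraries (adjusted p up to 0.149) and the second without any but scramble 2 (adjusted p up to 0.157), with limma and in the fit of all 15 libraries. The diet value was 2.01 without chow 1 and 3.25 without chow 3.

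Reads of these neighbours can be hard to tell apart. Of the 50-base words of the longest coding transcript (GENCODE M21), 53.9% in Slc22a28 and 36.1% in Slc22a30 also occurred in a transcript of another gene, each other's above all. For Slc22a27 and Slc22a29 the shares were 30.5% and 30.5%, again mostly each other's, and these transcripts were identical at 91.0% of alignment columns. The sources used here do not give how shared reads were counted, so how far each pair moved as 2 genes cannot be told apart. The 2 pairs moved in opposite directions.

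**Figure D3:**
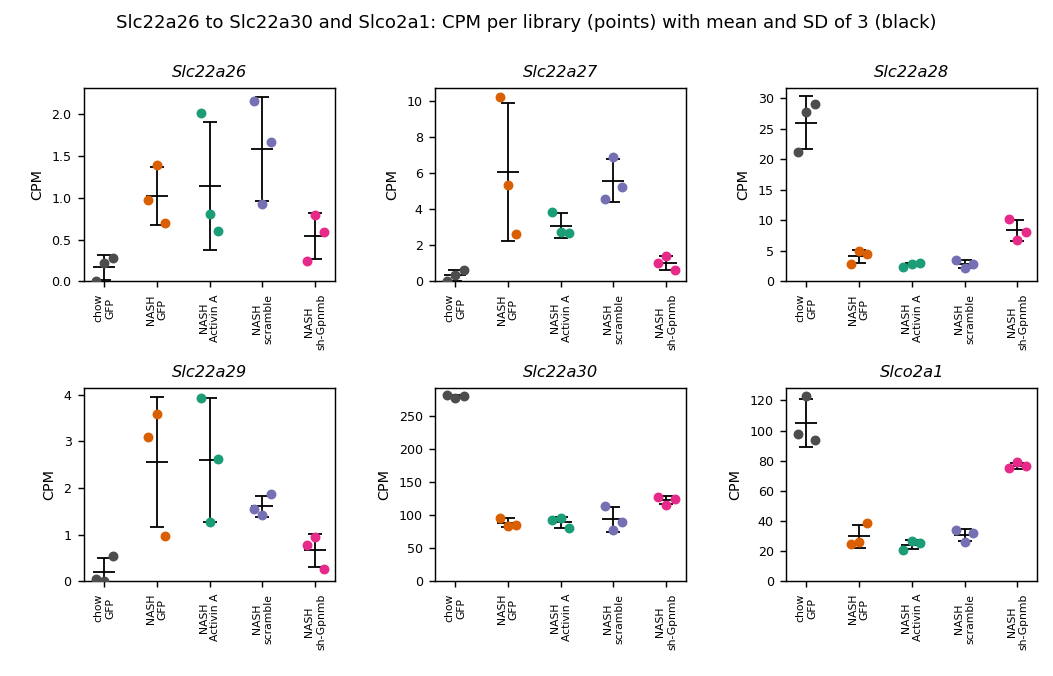
CPM of Slc22a26 to Slc22a30 and Slco2a1 in each library (points), by group, with mean and SD of 3 libraries in black and a separate axis for each gene. Slc22a28, Slc22a30 and Slco2a1 are highest on chow, while Slc22a26, Slc22a27 and Slc22a29 lie near 0 there.

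Slc22a7, an organic anion carrier of the basolateral membrane, stood at 70.4, 38.5 and 53.2 CPM on chow and at 6.66, 15.0 and 10.6 with GFP. Scrambled-hairpin livers held 6.35, 6.04 and 7.21 CPM and Gpnmb hairpin livers 9.51, 10.9 and 19.5, with no overlap in either comparison. It fell on the diet (-2.29 ± 0.30, edgeR adjusted p = 0.000835) and rose with the hairpin (1.05 ± 0.24, edgeR adjusted p = 0.00973). With Activin A it was 0.80 ± 0.27 and not called, at 14.7, 19.6 and 22.6 CPM.

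Slc22a5, which brings carnitine into cells, rose on the diet from 24.6, 36.9 and 32.1 CPM to 47.2, 82.1 and 86.3 (1.24 ± 0.24, edgeR adjusted p = 0.00611). It was higher again with the hairpin, going from 82.4, 73.1 and 76.6 CPM to 92.9, 107 and 99.0 (0.39 ± 0.08, edgeR adjusted p = 0.00452), without overlap of the groups in either case. Fitted with all 15 libraries, the hairpin rise had an adjusted p of 0.162. Of its 50-base words 27.1% occurred elsewhere, mostly in its neighbour Slc22a21, which was called in no comparison. Slc22a4, an ergothioneine carrier beside them, fell on the diet (-1.08 ± 0.30, edgeR adjusted p = 0.0344), a call lost without any GFP library or chow 1 (adjusted p up to 0.136) and under library size alone.

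Slc22a3, the low-affinity cation carrier, rose from 4.50, 6.34 and 6.83 CPM on chow to 14.6, 8.91 and 12.9 with GFP (1.09 ± 0.25, edgeR adjusted p = 0.0143, lost without GFP 1 or chow 1, adjusted p up to 0.0746). It fell from 9.79, 13.3 and 9.70 CPM with the scramble to 5.15, 6.21 and 2.49 with the hairpin (-1.22 ± 0.27, edgeR adjusted p = 0.00871). Of its exon bases, 9.31% lie on the strand opposite Plg, an abundant liver transcript. Slc22a18, an orphan carrier, fell by 0.34 ± 0.07 with the hairpin (edgeR adjusted p = 0.00521), and Slc22a23 by 0.24 ± 0.07 (edgeR adjusted p = 0.0304), the latter lost without any 1 of 5 libraries (all but hairpin 1, adjusted p up to 0.111) and in the fit of all 15 libraries (adjusted p = 0.239).

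The bile salt export pump Abcb11, which secretes bile salts into the canaliculus, stood at 863, 902 and 724 CPM on chow. GFP livers on the diet held 451, 449 and 412 CPM, Activin A livers 361, 457 and 398, scrambled-hairpin livers 481, 444 and 462, and Gpnmb hairpin livers 447, 462 and 576. All 12 NASH diet libraries lay below all chow libraries, and the 4 diet groups overlapped. The diet difference was -0.89 ± 0.16 (edgeR adjusted p = 0.00496), while Activin A (-0.13 ± 0.11) and the hairpin (0.12 ± 0.10) gave no call.

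The phospholipid floppase Abcb4 moved the other way on the diet, from 289, 373 and 275 CPM to 534, 492 and 745 (0.96 ± 0.21, edgeR adjusted p = 0.0110, and 0.0525 without chow 1). It rose with the hairpin from 631, 612 and 620 CPM to 713, 764 and 768 (0.29 ± 0.07, edgeR adjusted p = 0.0114), again without overlap. That rise had an adjusted p of 0.0771 without scramble 3 and 0.193 in the fit of all 15 libraries.

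Abcg5 and Abcg8 encode the subunits of the sterol pump that exports cholesterol and plant sterols into bile. They lie on opposite strands of chromosome 17, Abcg5 on the minus and Abcg8 on the plus strand. Their deposited gene models overlap, at 84658234 to 84683011 for Abcg5 and 84676302 to 84700333 for Abcg8. A short stretch separates the Abcg5 start from the RefSeq start of Abcg8 that lies farthest along the plus strand. It is shown because both members were called in the same 2 comparisons (RefSeq, GRCm38.p6, chr17:84683012-84683120, plus strand, 5′ to 3′). Capitals mark TTATC, the letters GATAA on the strand of Abcg5.
Abcg5-Abcg8: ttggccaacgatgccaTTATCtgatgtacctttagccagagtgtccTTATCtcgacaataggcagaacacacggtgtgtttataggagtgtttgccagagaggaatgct

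The letters GATAA, part of the motif of GATA factors, occurred in 25.4% of all RefSeq windows on either strand. Repeats of the nuclear receptor letters AGGTCA in the arrangements IR1, DR4 and DR1 stood in only 3, 5 and 13 of all 32851 windows, with either strand searched, and in 0 of the 61 windows of members, a count that such rare letters leave without information on the members.

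Abcg5 stood at 77.2, 75.0 and 80.2 CPM on chow, 143, 190 and 200 with GFP, 286, 336 and 314 with Activin A, 200, 139 and 169 with the scramble and 285, 223 and 325 with the hairpin. Every NASH diet library exceeded every chow library, and the Activin A and hairpin libraries exceeded both control groups of that diet. It was called higher on the diet (1.23 ± 0.16, edgeR adjusted p = 0.000828), with Activin A (0.80 ± 0.14, edgeR adjusted p = 0.0105) and with the hairpin (0.74 ± 0.15, edgeR adjusted p = 0.00558). The Activin A call was lost without Activin A 2 or 3 (adjusted p up to 0.0610).

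Abcg8 stood at 116, 123 and 97.0 CPM on chow, 132, 154 and 179 with GFP, 259, 334 and 279 with Activin A, 205, 161 and 178 with the scramble and 267, 229 and 339 with the hairpin. It was higher with Activin A (0.89 ± 0.14, edgeR adjusted p = 0.00732) and with the hairpin (0.64 ± 0.14, edgeR adjusted p = 0.00669), in 3 of 3 libraries each. On the diet the groups did not overlap, but the difference of 0.51 ± 0.17 did not pass (edgeR adjusted p = 0.0659). That difference was called with DESeq2, under library size alone and in the fit of all 15 libraries. The ratio of Abcg5 to Abcg8 CPM was 0.701 ± 0.112 (SD, n = 3) on chow, 1.14 ± 0.081 with GFP, 1.08 ± 0.0626 with Activin A, 0.930 ± 0.0582 with the scramble and 1.00 ± 0.0619 with the hairpin. In Abcg5 3.02% and in Abcg8 2.19% of exon bases lie opposite each other.

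Abcg2, which exports urate and conjugates, was higher with the hairpin, at 201, 182 and 225 CPM against 152, 140 and 137 (0.53 ± 0.09, edgeR adjusted p = 0.00200). It was not called with Activin A (0.34 ± 0.10, edgeR adjusted p = 0.0802) or on the diet (0.17 ± 0.18). Abcc2 was not called in any of the 3 comparisons.

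The multidrug pumps Abcb1a and Abcb1b are neighbours with similar sequence. With the hairpin they were called in opposite directions, and each of these calls was lost in some alternative runs. Abcb1a stood at 1.76, 2.24 and 1.93 CPM on chow and at 15.8, 12 and 4.41 with GFP, with GFP replicate 3 apart from the other 2. It rose on the diet (2.49 ± 0.43, edgeR adjusted p = 0.00349) and fell with the hairpin from 6.35, 13.1 and 9.70 CPM to 4.0, 3.37 and 5.90 (-1.11 ± 0.28, edgeR adjusted p = 0.0153). The fall was lost without hairpin 2, scramble 2 or scramble 3 (adjusted p up to 0.0672) and in the fit of all 15 libraries.

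Abcb1b was not called on the diet, with 2.80, 4.47 and 2.00 CPM on chow against 2.87, 2.78 and 3.44 with GFP (0.01 ± 0.35). It was lower with Activin A, at 1.36, 0.861 and 1.46 CPM (-1.31 ± 0.31, edgeR adjusted p = 0.0413), a call lost without any 1 of the 6 libraries (adjusted p up to 0.136). With the hairpin it held 2.61, 6.05 and 6.49 CPM against 1.94, 2.82 and 2.93, groups that overlap (1.00 ± 0.33, edgeR adjusted p = 0.0466), and the call was lost without any 1 of 5 libraries (all but hairpin 1, adjusted p up to 0.154), under library size alone, with limma and in the fit of all 15 libraries. Of their 50-base words, 17.0% in Abcb1a and 18.3% in Abcb1b occurred elsewhere, mostly in each other. The ratio of Abcb1a to Abcb1b CPM was 0.699 ± 0.240 (SD, n = 3) on chow and 3.70 ± 2.18 with GFP on the diet, where it ran from 1.28 to 5.52. It was 9.84 ± 1.84 with Activin A (7.88 to 11.5), above every GFP library. It was 1.00 ± 0.496 with the hairpin (0.557 to 1.53) against 3.74 ± 0.779 with the scramble (3.27 to 4.64), without overlap. These ratios were not tested.

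**Figure D4:**
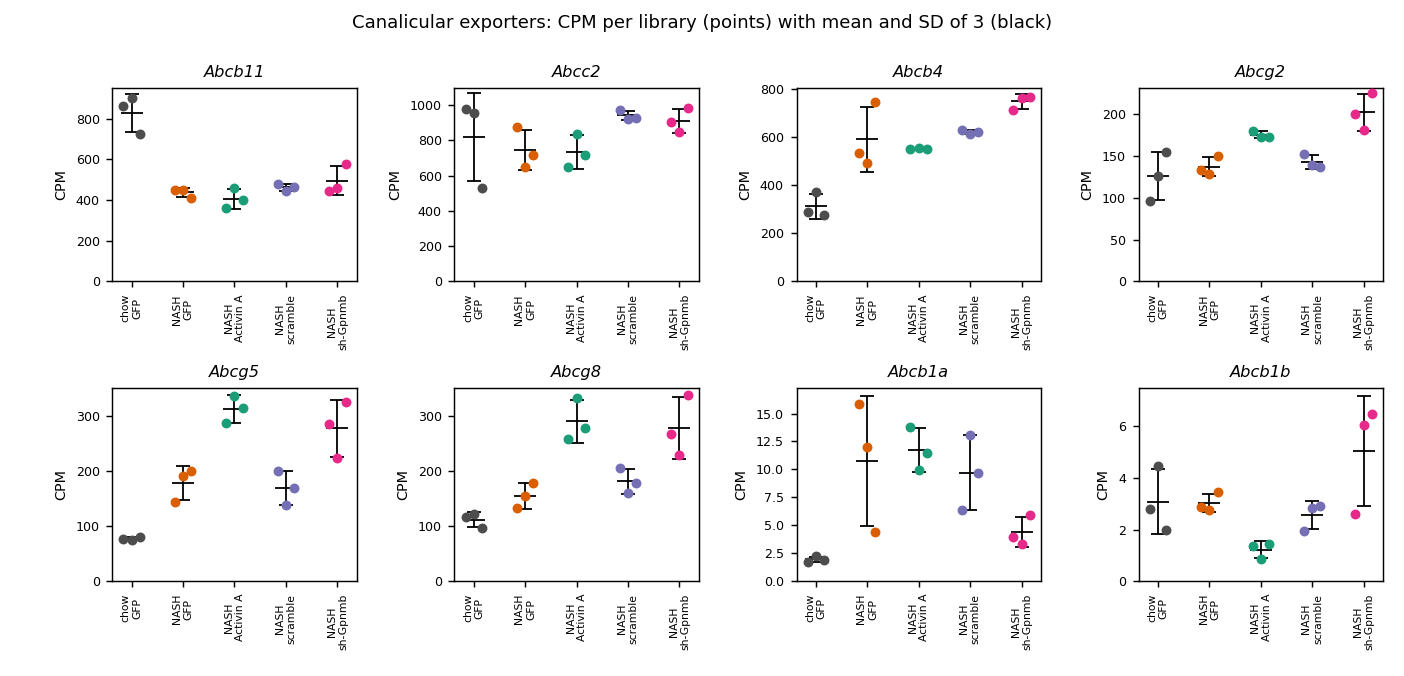
CPM of the 8 canalicular exporters in each library (points), by group, with mean and SD of 3 libraries in black and a separate axis for each gene. Abcb11 is highest on chow, Abcg5 and Abcg8 are highest with Activin A and the Gpnmb hairpin, and Abcc2 overlaps across all 5 groups.

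Among the 8 ABCC members, 4 were higher on the diet and 0 lower, against 11.2% and 5.82% of all genes. Abcc4, a basolateral pump for bile acids and cyclic nucleotides, stood at 2.07, 3.28 and 2.00 CPM on chow and at 23.2, 14.3 and 4.90 with GFP. The other NASH diet libraries held between 7.32 and 18.4 CPM, so chow was lowest throughout. The diet difference was 2.58 ± 0.50 (edgeR adjusted p = 0.00618), and neither Activin A (0.24 ± 0.41) nor the hairpin (0.25 ± 0.19) passed the threshold.

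Abcc1, a pump for glutathione conjugates found in many cell types, rose from 1.46, 2.09 and 1.52 CPM to 5.34, 5.80 and 5.11 (1.72 ± 0.29, edgeR adjusted p = 0.00300). It fell with the hairpin from 5.29, 6.00 and 6.38 CPM to 4.24, 3.31 and 2.27 (-0.83 ± 0.23, edgeR adjusted p = 0.0260), and this was lost without any 1 of 4 libraries (hairpin 2 and 3, scramble 2 and 3, adjusted p up to 0.109). The called macrophage, stellate and endothelial markers, given above, had the same directions in these 2 comparisons. With Activin A, Abcc1 held 3.93, 4.53 and 2.73 CPM and was not called. There 7 of 8 macrophage and 2 of 6 stellate markers were called lower, and endothelial markers 1 higher and 1 lower. The part of these cells was not tested.

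Abcc5, an exporter of cyclic nucleotides, rose on the diet by 1.11 ± 0.24 (edgeR adjusted p = 0.0102, and 0.0538 without GFP 1). Abcc9 encodes a subunit of ATP-sensitive potassium channels and transports nothing itself. It stood at 25.4, 22.3 and 20.7 CPM on chow, 33.5, 32.2 and 32.5 with GFP and 45.0, 50.2 and 47.4 with Activin A, 3 sets without overlap. Its rise on the diet (0.56 ± 0.15, edgeR adjusted p = 0.0286) was lost without any 1 library (adjusted p up to 0.114), and its rise with Activin A (0.52 ± 0.09, edgeR adjusted p = 0.0115) without Activin A 2 or 3 (adjusted p up to 0.0666). Abcc3, the most abundant of the class, was not called on the diet (0.51 ± 0.22, edgeR adjusted p = 0.143) and was higher in the scrambled-hairpin livers than on chow (0.73 ± 0.16, edgeR adjusted p = 0.00199). Its diet difference was called under library size alone, in the fit of all 15 libraries and without chow 2.

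Of the ABCA and cholesterol exporters, 3 of 11 tested were higher on the diet and 2 lower, against 11.2% and 5.82% of all genes. Abcg1, which passes cholesterol to high-density lipoprotein and is a target of liver X receptors, stood at 4.50, 5.29 and 4.0 CPM on chow and at 16.3, 13.4 and 16.0 with GFP. It rose on the diet (1.76 ± 0.20, edgeR adjusted p = 0.000452) and fell with the hairpin from 14.8, 18.5 and 15.3 CPM to 11.5, 9.10 and 12.1 (-0.55 ± 0.14, edgeR adjusted p = 0.0159, lost without hairpin 2 or scramble 2, adjusted p up to 0.0698). Abca1, which loads cholesterol onto apolipoprotein A-I, was called in none of the 3 comparisons (0.23 ± 0.18 on the diet, 0.31 ± 0.11 with Activin A, 0.03 ± 0.08 with the hairpin).

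Abcg3, a rodent relative of Abcg2, was the only member of this class called in all 3 comparisons by edgeR. It rose on the diet from 2.31, 2.54 and 3.52 CPM to 8.03, 6.95 and 5.11 (1.31 ± 0.28, edgeR adjusted p = 0.0114, lost without GFP 1 or chow 1, adjusted p up to 0.0609). Activin A livers held 2.18, 4.25 and 2.55 CPM (-1.18 ± 0.29, edgeR adjusted p = 0.0483, lost without Activin A 1 or 3 or GFP 1 or 2, adjusted p up to 0.191). Hairpin livers held 3.70, 3.31 and 3.57 CPM against 5.60, 7.23 and 6.50 (-0.85 ± 0.18, edgeR adjusted p = 0.00730). The called macrophage and stellate markers had the same directions in the 3 comparisons, and their part was not tested.

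Abca8a and Abca8b, neighbours on chromosome 11 that take part in lipid and organic anion export, rose together with the hairpin. Abca8a stood at 138, 134 and 106 CPM on chow, 44.7, 58.5 and 74.3 with GFP, 63.7, 50.4 and 60.6 with the scramble and 87.1, 96.3 and 121 with the hairpin. It fell on the diet (-1.06 ± 0.20, edgeR adjusted p = 0.00579) and rose with the hairpin (0.83 ± 0.12, edgeR adjusted p = 0.00115), each time without overlap. Abca8b rose with the hairpin by 0.63 ± 0.08 (edgeR adjusted p = 0.000339) from 67.5, 67.0 and 67.1 CPM to 97.1, 96.3 and 112, and was not called on the diet (-0.19 ± 0.17). Chow libraries held 107, 100 and 71.1 CPM. The scramble lay below chow (-0.49, edgeR adjusted p = 0.0108), a call lost without chow 1 and under library size alone.

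Abca2, a lipid transporter of endolysosomes, fell on the diet by 0.83 ± 0.22 (edgeR adjusted p = 0.0271), a call lost without GFP 1, GFP 2, chow 1 or chow 2 (adjusted p up to 0.108) and under library size alone. In the scrambled-hairpin livers its difference from chow was not called (-0.17 ± 0.17). Abca5, chosen after its values were seen, rose on the diet by 1.12 ± 0.26 (edgeR adjusted p = 0.0144).

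Of the 9 organelle ABC transporters, 1 was higher and 1 lower on the diet, against 11.2% and 5.82% of all genes. Abcd2, a peroxisomal importer of very-long-chain fatty acids, stood at 5.47, 8.05 and 14.8 CPM on chow and between 21.8 and 42.5 CPM in all NASH diet libraries. It rose on the diet (2.02 ± 0.30, edgeR adjusted p = 0.00145). The most abundant of the class, Abcd3, was called in none of the 3 comparisons (0.06 ± 0.16, 0.08 ± 0.10 and 0.09 ± 0.07).

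Abcb10, a protein of the inner mitochondrial membrane needed for heme synthesis, fell on the diet from 47.0, 47.4 and 44.1 CPM to 28.6, 23.5 and 27.6 (-0.76 ± 0.15, edgeR adjusted p = 0.00606). It rose with the hairpin from 33.0, 30.9 and 29.7 CPM to 38.7, 38.9 and 43.8 (0.40 ± 0.08, edgeR adjusted p = 0.00664). Abcb9, a lysosomal peptide transporter, fell with the hairpin by 0.85 ± 0.26 (edgeR adjusted p = 0.0340), lost without hairpin 1 or 2 or scramble 2 or 3 (adjusted p up to 0.117).

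The ABC proteins without membrane domains were called in neither the diet nor the Activin A comparison. With the hairpin, 2 of 4 were higher, against 12.2% of all genes. Abce1, a ribosome recycling factor, rose from 72.0, 71.2 and 68.2 CPM to 90.4, 94.8 and 91.3 (0.41 ± 0.06, edgeR adjusted p = 0.00125). Chow libraries held 85.2, 104 and 104 CPM, and the scramble lay below chow (log2 difference -0.50, edgeR adjusted p = 0.00156), a call lost under library size alone. Abcf3 rose by 0.37 ± 0.08 (edgeR adjusted p = 0.00698), and Abcf1, the most abundant, was not called (-0.05 ± 0.07). Abcf3 too was lower with the scramble than on chow (-0.27, edgeR adjusted p = 0.0412), a call lost in 14 of 21 alternative runs.

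The diet and hairpin comparisons share no library, so their calls can be set against each other. Of the members tested in both, 16 were called in both, which is 61.5% of the 26 diet calls and 53.3% of the 30 hairpin calls. Over all genes tested in both, 1113 were called in both, 46.6% of the 2387 diet calls and 31.5% of the 3533 hairpin calls. Of the 16 members, 13 went in opposite directions, beside 990 of the 1113 genes (88.9%). The 3 members called higher in both were Abcg5, Abcb4 and Slc22a5.

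**Figure D5:**
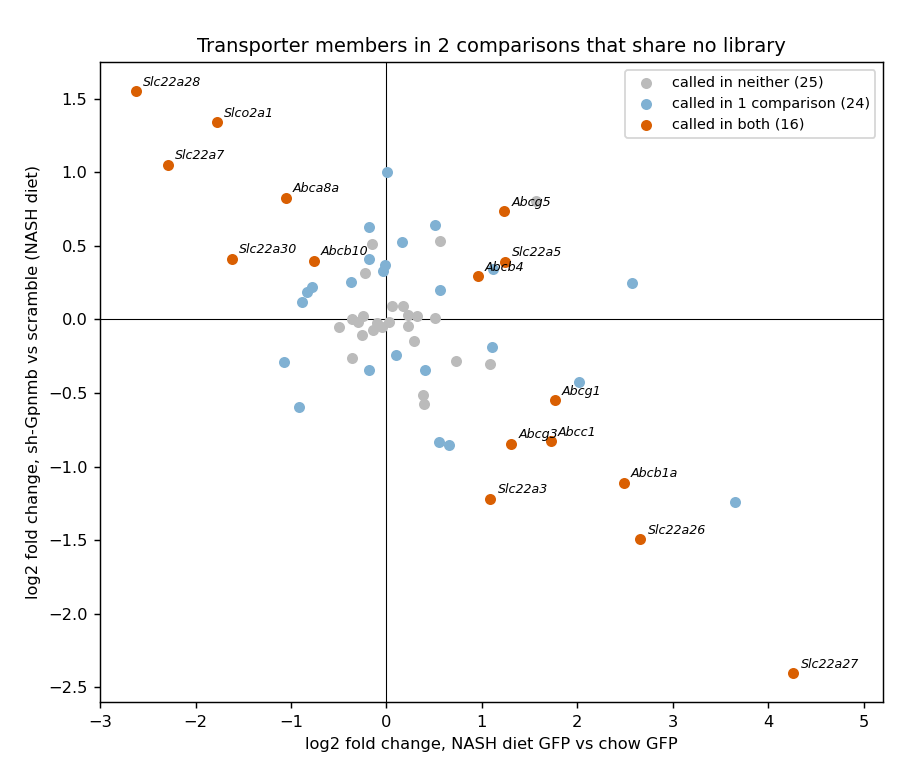
Log2 fold change of 65 members in the NASH diet comparison (horizontal) and the Gpnmb hairpin comparison (vertical), with 16 called in both (orange, named), 24 called in 1 (blue) and 25 in neither (grey). Most named members lie in the upper left or lower right, and Abcg5, Abcb4 and Slc22a5 lie in the upper right.

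Whether Activin A and the Gpnmb hairpin differed in effect was tested directly, as the Activin A change minus the hairpin change in 1 fit of all 15 libraries. Of 67 members, 6 were called by edgeR (8.96%), against 4.04% of all genes. Slco2a1 (-1.65 ± 0.23, edgeR adjusted p = 0.000472), Slc22a28 (-2.14 ± 0.33, edgeR adjusted p = 0.00130) and Abcb1b (-2.32 ± 0.51, edgeR adjusted p = 0.0145) were each higher with the hairpin and below 0 on the log2 scale with Activin A, where only Abcb1b was called. These 3 kept the call under every alternative run. Others were Abca8b (-0.78 ± 0.19) and Abcb9 (1.30 ± 0.33), with adjusted p up to 0.0938 when 1 library was left out. The number of members called was 3 without Activin A 3 and 3 without scramble 3, and neither of these calls was kept there. Abca8b was also lost without GFP 2, Activin A 1, scramble 1 or 2 or hairpin 3, and Abcb9 without GFP 2 or 3, Activin A 1, scramble 2 or hairpin 1 or 2. Library size alone lost the Abca8b call too. For Abcg5 the difference was 0.06 ± 0.22 and for Abcg8 0.25 ± 0.22, neither called.

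Genes that work with these transporters were taken from 6 lists. Of all genes tested, 11.2% were called higher and 5.82% lower on the diet. The shares were 1.66% and 3.86% with Activin A and 12.2% and 12% with the hairpin, and the list counts below stand beside these. Of 12 tested bile acid and organic solute partners, 6 were lower on the diet and 0 higher, among them Cyp7b1, an oxysterol hydroxylase (-2.65 ± 0.30), Slc27a5, the bile acid and fatty acid CoA ligase (-0.86 ± 0.17), and Atp8b1, a flippase of the canalicular membrane (-0.62 ± 0.15). The hairpin gave 5 higher and 2 lower, with Cyp7b1 at 1.93 ± 0.14, Tmem30a, the subunit of phospholipid flippases, at 0.66 ± 0.07 and Slc47a1, a canalicular cation exporter, at -0.62 ± 0.08. With Activin A, Atp8b1 was the 1 partner called by edgeR, and it was higher (0.60 ± 0.11).

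Of 16 regulators of transporters, 1 was called on the diet, Nr5a2 (-0.70 ± 0.16), and 1 with Activin A, the constitutive androstane receptor gene Nr1i3 (0.73 ± 0.13). The hairpin gave 4 higher and 3 lower, with Hnf4a at 0.78 ± 0.09, Nr0b2, the small heterodimer partner, at 1.28 ± 0.19 and Cebpa at -0.47 ± 0.07. Of 10 peroxisome and carnitine partners, 7 were higher on the diet beside Abcd2 and Slc22a5. Crat, the carnitine acetyltransferase (1.92 ± 0.25), Pex11a, a peroxisome division factor (1.39 ± 0.21), and Ehhadh, a peroxisomal beta-oxidation enzyme (1.98 ± 0.32), had the smallest p. With Activin A 0 of the 10 were called. With the hairpin 1 was higher (Ehhadh, 0.50 ± 0.11) and 3 were lower (Acaa1b, Acaa1a and Pex11a).

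Of 10 sterol transport partners, 2 were higher on the diet (Lpl, lipoprotein lipase, at 2.11 ± 0.18 and Mylip at 0.90 ± 0.22), 1 was lower with Activin A (Npc2 at -0.46 ± 0.11), and with the hairpin 1 was higher and 3 were lower. Of 8 scaffold and trafficking genes the diet gave 1 higher and 1 lower, Activin A 0 and 0, and the hairpin 2 and 3. Counts of 0 or 1 among 8 genes cannot be told apart from the shares of all genes given above. Of 8 genes of antigen peptide transport and loading, which include the ABC genes Tap1 and Tap2 outside the symbol rule, 2 were lower on the diet. These were Calr (-0.99 ± 0.20) and Pdia3 (-0.80 ± 0.22). Tap1, Tap2, Tapbp, Psmb8 and Psmb9 lay between 0.19 and 0.47 there and B2m at -0.19, none called. With Activin A 4 were lower (Tap1, Tapbp, Psmb8 and Psmb9). With the hairpin 2 were higher (Calr and Pdia3) and 3 lower (Tap1, Tapbp and Psmb9). Tap1, chosen after its values were seen, was at -0.54 ± 0.13 with Activin A and -0.51 ± 0.08 with the hairpin, both called by edgeR.

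The 15 protein-coding members below the count rule had at most 16 counts in a library, among them Abcg4, Abca4, Slco1c1, Slco4a1, Slc22a2 and Slc22a8. Of the kept members, 59 reached 10 counts in all 15 libraries and 8 did not. Abca14 was tested in none of the 3 comparisons. For Abcb6, a porphyrin and heme transporter called in no comparison, 90.3% of the 50-base words occurred in an overlapping gene model, Gm29253, so its counts are uncertain. In all, 10 members shared at least 10% of their words with other genes, and 14 had exon bases opposite another gene.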

How the data were processed

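Poly(A) RNA sequencing of 15 mouse liver libraries had been summarised by the authors as whole-number counts per gene, not normalized, in 3 deposited tables, per the file headers. Gene length and position stood beside them. Per the submitters' processing notes the build was GRCm38 (mm10). The sources used here name no aligner, counter or strand setting. Columns were mapped to samples by their names and titles. The 23148 genes of both tables holding the NASH diet GFP libraries had 0 different counts there.

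Genes passed filterByExpr (minimum count 10), were scaled with TMM and tested with edgeR 4.0.16 (quasi-likelihood, two-sided, R 4.3.3), with the 2 groups of a comparison, or all 15 libraries for comparisons across tables. Calls needed an adjusted p (Benjamini-Hochberg, whole table) under 0.05. SE is the log2 fold change divided by the square root of F. CPM are counts per 1000000 with TMM factors over 15 libraries. The test recovered the larger known changes in counts simulated from its own model, with equal numbers of genes changed up and down. Those libraries otherwise differed only in size, so the simulation cannot speak to calls that depend on scaling or on smaller changes. Alternatives were limma 3.58.1, DESeq2 1.42.0, other scaling, no filter, a replicate block and each library left out.

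Members and lists were chosen with earlier results of these data known. Named were: called members (at most 12 per direction and comparison by p), the top member of each role class, a set of 21 main transporters, members called in the Activin A minus hairpin contrast, and called genes of other lists (at most 3). Some members under this rule enter the counts and are not reported here by name. Promoter letters came from RefSeq windows (GRCm38.p6) and transcripts from GENCODE M21. The labels give no batch, so the diet and an unlabelled batch of the chow libraries cannot be told apart.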

Additional observations from a re-analysis of the deposited data

Results flagged for a closer look

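In 5 members described here the effect of Activin A differed from that of the Gpnmb hairpin in the test of the difference itself (Activin A change minus hairpin change, log2, edgeR adjusted p under 0.05). The prostaglandin transporter gene Slco2a1 differed by -1.652, the anion carrier gene Slc22a28 by -2.141 and the multidrug pump gene Abcb1b by -2.316. Abca8b differed by -0.784 and the lysosomal peptide transporter gene Abcb9 by 1.303. Neither of these last calls was kept without Activin A 3 or without scramble 3, and that of Abca8b was also lost under library size alone. The 2 arms used different vectors and promoters, and the part of the vector was not tested.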

How the results depend on the processing

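Counts over all genes were taken only in the main and scaling runs, so the other counts here stand without them. The number of members called higher on the diet was 16, and 10 to 16 with 1 library left out (10 without GFP 1 or chow 1). The fit of all 15 libraries kept the 26 diet calls and added 11, among them Slco1a4, Slco1b2, Abcc3 and Abcg8. Members lower with the hairpin numbered 13, and 6 to 12 with 1 library left out. Slc22a29 was added to them by limma, under library size alone and without the filter. With Activin A, the 3 members higher became 6 with DESeq2, 5 without the filter and 1 to 7 with 1 library left out. Abcg2 and Slc22a7 were among those that DESeq2 added. The 2 lower became 4 with DESeq2, 4 in the fit of all 15 libraries, 6 without the filter and 0 to 3 with 1 library left out. The difference between Activin A and hairpin effects was called in 6 members, and in 3 to 7 with 1 library left out. Between scramble and GFP, 0 became 8 with DESeq2, 2 with limma, 9 without the filter and 0 to 10 with 1 library left out. Members lower in scramble than on chow were 11, and 6 under library size alone, where Abcf3 turned to 0.058 (-0.27 in the main fit). With the replicate block 0 members were lower with Activin A. Libraries with the same number did not deviate together (correlations -0.125 to 0.026 over genes), so the numbers share a name only. With the block 21 of 26 diet calls, 3 of 5 Activin A calls and 27 of 30 hairpin calls were kept, and those not kept were Abca2, Abcc9, Slc22a4, Slc22a26 and Slc22a29 on the diet, Abcb1b and Abcg3 with Activin A, and Abcc1, Slc10a5 and Slc22a26 with the hairpin. Under every alternative 16 of 26 diet calls, 1 of 5 Activin A calls (Abcg8) and 16 of 30 hairpin calls were kept. The calls of Slc22a26 and Slc22a29 on the diet rest on 7 and 9 counts on chow, and the parts of depth and of the spread between libraries were not tested.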
